A study of Mus musculus with 2 samples.

Results

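Melanocytes of the mitral valve were 74 of 17162 cells sequenced one by one with the 10x Genomics 3′ kit from mouse mitral valves at E17.5, late in gestation. A cell was counted as a melanocyte when it carried at least 4 unique molecular identifiers (UMIs, each standing for 1 captured transcript) of the pigment genes Dct, Pmel, Mlana, Tyrp1 and Tyr in sum. Of the barcodes in the files, 17162 passed the cell filter, which asked for 500 genes, 1000 UMIs and a mitochondrial share below 20%. The control library came from wild type embryos. The mutant library came from embryos labelled Nfatc1-Cre, Dicer loxp/loxp, in which Cre acts where the Nfatc1 promoter is active, classically the endocardium, and removes part of the microRNA-processing gene Dicer1. Each library was 1 pool of 3 to 4 hearts, digested with 0.05% trypsin and sorted with a dye for nonviable cells. With 1 library per genotype there is no replicate, so no test between genotypes was possible and every interval below is a 95% interval for counting error only.

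Melanocytes arise from the neural crest, partly through Schwann cell precursors along nerves, and are best known from skin and hair. A small population also settles in the heart, in the valve leaflets and the septum, where the cells carry melanin and lie away from any light. Their programme is led by the transcription factors Mitf, Sox10 and Pax3. Their survival and migration depend on the receptors Kit and Ednrb, whose ligands are Kit ligand and the endothelins, and their pigment is made inside melanosomes by the enzymes tyrosinase, Tyrp1 and Dct on amyloid fibrils of Pmel.

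The control library held 52 melanocytes among 10759 cells, a share of 0.483% (exact Clopper-Pearson interval 0.361% to 0.633%). The mutant library held 22 among 6403 cells, 0.344% (0.215% to 0.520%). With 1 library per genotype, these shares cannot be compared between genotypes. The melanocytes stood well clear of the threshold that chose them: the lowest carried 10 pigment UMIs in the control and 24 in the mutant library, the medians were 75 and 156.5, and the highest were 163 and 379. Just outside the threshold, 0 cells carried 3 pigment UMIs, 9 carried 2 and 214 carried 1. No kept cell fell between 4 and 9. All 74 would also have been chosen from Dct and Pmel alone.

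The 5 pigment genes made up 1.32% of the UMIs of the control melanocytes and 2.13% of those of the mutant melanocytes, against 1.72 and 1.79 CPM (UMIs per 1e6 UMIs) in all other cells. At least 1 pigment UMI was found in 1.04% of the other control cells (0.854% to 1.25%) and 1.76% of the other mutant cells (1.45% to 2.11%). The source of these UMIs was not tested. The melanocytes had a median of 5287 UMIs in the control and 8119.5 in the mutant library, beside 5775 and 9624 in the other cells. Their median mitochondrial share was 3.28% and 4.82%, beside 3.19% and 3.73%. Of the kept barcodes, 11 occurred in both libraries, and 0 of these were melanocytes. No doublet caller was run. Of the 74 cells, 12 carried at least 4 UMIs of 5 markers of another class, with the Schwann lineage not counted. The markers were endothelial in 3, mesenchymal in 5, macrophage in 1, and cardiomyocyte or mural in the rest. Of these cells 8 were in the control and 4 in the mutant library. Values without the 12 cells are given where leaving them out moved a result between the libraries or a list. At least 4 UMIs of the Schwann markers were found in 39 of the 74 cells. Granulocyte transcripts, at 304 and 485 CPM for S100a8 in the other cells, were at 0 UMIs in the melanocytes of both libraries. For erythroid markers, 52 of 52 control and 20 of 22 mutant melanocytes had 0 UMIs.

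The promoters of the melanin enzymes are shown because all 3 share a short word that is textbook background for Mitf binding. The 250 bases before the RefSeq start (GRCm38.p6) were read 5′ to 3′ along the gene's strand, with the letters CATGTG, or CACATG where it lies on the other strand, in capitals. For Tyrp1 only 30 bases around the match are given, since the GENCODE model of that gene begins upstream of it. Dct lies at chr14:118012790-118052244 on the minus strand, Tyr at chr7:87424771-87493512 on the minus strand and Tyrp1 at chr4:80834123-80851719 on the plus strand (mm10).

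Dct, chr14:118052247-118052496, minus strand: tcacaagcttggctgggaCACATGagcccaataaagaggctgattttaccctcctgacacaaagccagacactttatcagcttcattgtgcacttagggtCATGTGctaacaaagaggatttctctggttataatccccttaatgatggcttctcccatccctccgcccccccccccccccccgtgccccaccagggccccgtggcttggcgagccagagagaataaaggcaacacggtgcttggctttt

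Tyr, chr7:87493513-87493762, minus strand: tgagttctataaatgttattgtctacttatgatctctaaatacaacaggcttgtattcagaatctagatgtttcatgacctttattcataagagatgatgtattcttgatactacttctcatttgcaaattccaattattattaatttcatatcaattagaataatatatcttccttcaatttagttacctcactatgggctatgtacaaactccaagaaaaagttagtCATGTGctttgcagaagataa

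Tyrp1, chr4:80834155-80834184, plus strand: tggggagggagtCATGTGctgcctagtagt

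Read on either strand, CATGTG was present in 12.3% of all 32851 RefSeq promoters of this length. The longer word GTCATGTGCT, which contains the shorter one, is the longest run around it that the 3 promoters share. It was chosen after these promoters had been read and was present in all 3 and in 0.155% of all promoters. It ended 143 bases before the start of Dct, 14 before that of Tyr and 39 before that of Tyrp1. Of 15 further pigment genes, 13 had a promoter in the table, and 5 of their 14 promoters held CATGTG: those of Oca2, Slc24a5, Slc7a11, Trpm1 and Tspan10. Among the genes that stood out most in these cells, described below, 1 of 21 promoters held it. A match is a run of letters and was not tested as a binding site.

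Levels were set side by side as CPM, the UMIs of a gene per 1e6 UMIs summed over the cells of a group. Because 1 UMI stands for 1 transcript end, CPM was not divided by gene length. Dct, the enzyme dopachrome tautomerase, overlaps 4930435M08Rik on the opposite strand. It was found in all 74 melanocytes, at 7601 CPM (7294 to 7919) in the control and 12651 CPM in the mutant library. Cell by cell it ran from 599 over a median of 7948 to 25063 CPM in the control, and from 944 over 15180 to 56277 in the mutant library. Pmel, the fibril protein of the melanosome, was likewise found in all 74 cells, at 3834 and 5174 CPM. It lies at chr10:128704195-128720238 and overlaps Cdk2 and Dgka on the other strand. The cells of the 2 libraries overlapped for both genes, and the choice of cells fixes that these values are high.

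**Figure D1:**
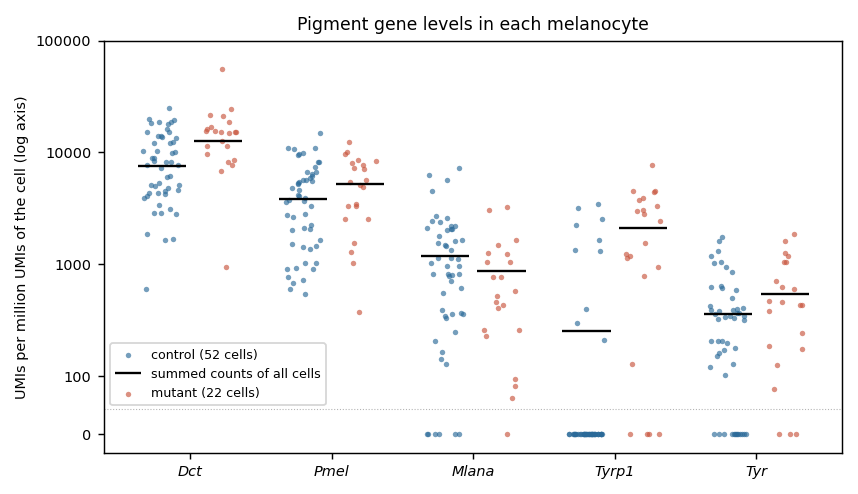
Each point is 1 melanocyte, with UMIs of the gene scaled to CPM of that cell on a log axis (cells without a UMI drawn at 0, below the dotted line), for 52 control and 22 mutant cells. Bars mark the CPM of the summed counts. Dct and Pmel are found in every cell, while Tyrp1 is at 0 in 42 of the 52 control and 4 of the 22 mutant cells.

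Mlana, a melanosome membrane protein, was found in 46 of 52 control and 21 of 22 mutant melanocytes, at 1195 and 871 CPM. Tyr, tyrosinase itself, the first enzyme of melanin synthesis, was found in 39 and 19 cells, at 358 CPM (293 to 432) and 543 CPM. Tyrp1 differed most: 10 of 52 control cells and 18 of 22 mutant cells had a UMI, at 255 CPM (201 to 319) and 2103 CPM. In endothelial-marker cells, a class chosen with the same kind of rule and at median depths of 5097 and 7887 UMIs, Dct was found in 0.230% and 0.817% of cells, Pmel in 0.263% and 0.306%, and Tyrp1 in 0 of 3037 and 0 of 1958 cells.

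Across cells, depth and the share of UMIs taken by the 5 pigment genes had a Spearman correlation of -0.67 over the 52 control cells and -0.48 over the 22 mutant cells. Depth is the denominator of that share. Depth and the number of pigment UMIs had a Spearman correlation of -0.11 in the control and 0.41 in the mutant library. These are descriptions of single cells that share a library and were chosen by the same genes. The share itself ran from 0.150% to 3.48% of a cell's UMIs in the control and from 0.151% to 6.56% in the mutant library.

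The transcription factors of the lineage, which the selection did not use directly, were detected together with the pigment genes. They come from the same cells, however, so they describe the population and are no independent test of it. Pax3, which acts upstream of Mitf, was found in 50 of 52 control and 21 of 22 mutant melanocytes at 828 and 947 CPM, with 4 UMIs in the other cells of each library. Mitf, the master regulator, was found in 48 and 19 cells at 665 and 683 CPM, against 9.32 and 9.96 CPM elsewhere. Sox10, the neural crest factor, was found in 42 and 18 cells at 391 and 355 CPM, against 0.508 and 0.184 CPM. Mutant over control melanocytes gave a log2 ratio of 0.19 for Pax3 (-0.09 to 0.48), 0.04 for Mitf (-0.29 to 0.37) and -0.13 for Sox10 (-0.60 to 0.31), and each interval includes 0.

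The background for such counts is broad: of 9869 genes with a mean of at least 10 CPM in the melanocytes or the other cells, 9.35% were at least 2-fold higher in melanocytes in both libraries and 9.15% at least 2-fold lower, and the median log2 ratio of melanocytes over other cells was 0.10. Of the lineage factors, 12 of 15 reached that level, 8 lay at least 2-fold above and 1 as far below, with a median log2 ratio of 3.98. The other higher members were Tfap2a (172 and 221 CPM), Tfap2b (36.4 and 59.2 CPM), Sox5, Lef1 and Foxd3. Of the 8 higher calls, 2 rested on 3 or fewer UMIs in the melanocytes of at least 1 library, Foxd3 among them. Sox9, which marks the mesenchyme of the valve, was lower at 62.9 and 26.9 CPM against 306 and 216 CPM. Foxd3, a factor of early crest and glia, was found in 1 of 52 control and 8 of 22 mutant cells (6.62 and 69.9 CPM). After thinning of every cell to 1000 UMIs these shares were 0.605% and 5.85%, with 0 cells left out.

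Of the 15 further pigment genes 13 were measured, of which 10 with UMIs in both libraries were at least 2-fold higher and 1, the protease gene Ctsk, lower (median log2 ratio 6.79). Oca2 also passed the threshold, but only through the 0.5 counts added for ratios, since its control melanocytes were at 0 UMIs. With Oca2 counted, 2 of the higher calls rested on 3 or fewer UMIs in the melanocytes of at least 1 library. The lower call of Ctsk did so too. Gpnmb, a melanosomal glycoprotein related to Pmel, was found in 52 of 52 and 21 of 22 melanocytes at 1394 and 1646 CPM, against 1.57 and 1.44 CPM in other cells. Slc45a2, a transporter of the melanosome, had 60 UMIs in the melanocytes of each library and 2 and 3 UMIs in all other cells. Gpr143, the receptor mutated in ocular albinism, stood at 136 and 140 CPM. Oca2, the pink-eyed dilution transporter, had 4 UMIs in the mutant melanocytes, all in 1 cell. Slc24a5, a further melanosomal exchanger, had 454 and 522 CPM, but also 54.6 and 54.1 CPM in other cells. It overlaps Myef2 on the opposite strand. The use of strand in counting is not stated in the sources used here, and whether reads of Myef2 add to these counts was not tested.

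The genes that build, move and dock melanosomes were higher to a smaller degree. Of 25 such genes 19 were measured, and 10 were at least 2-fold higher and 0 lower (median log2 ratio 1.41). Melanophilin (Mlph), which links melanosomes to the motor, had 460 and 608 CPM against 0.896 and 0.781 CPM. Its partners, the motor Myo5a (119 and 204 CPM) and Rab27a (86.1 and 108 CPM), were higher as well. Rab38, which delivers enzymes to melanosomes, was found in 9 of 52 control and 13 of 22 mutant cells, at 39.7 and 161 CPM. Lyst, whose loss gives the beige coat, stood at 139 and 188 CPM against 22.6 and 23.5 CPM, and the adaptor subunit Ap3b1 and the trafficking gene Hps3 were higher as well. The other 9 measured genes of this group were called neither way.

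Over all genes with a mean of at least 50 CPM over the libraries and at least 10 UMIs in the melanocytes of each, 155 of 3203, or 4.84%, were at least 4-fold higher than in other cells in both libraries, with the 5 selecting genes left out. The 25 with the highest ratio were led by Pax3, Slc45a2, the homeobox gene Alx1 and the synaptotagmin gene Syt4. Alx1 had 19 and 17 UMIs in melanocytes and 2 and 0 in all other cells. Syt4, better known from neurons, was found in 40 of 52 and 20 of 22 melanocytes, at 656 and 1339 CPM against 0.343 and 0.474 CPM. Several further genes of this group are best known from neurons or glia: the connexin gene Gjc3 (69.5 and 102 CPM), the adhesion gene Nrcam (99.3 and 237 CPM), the glycine receptor subunit Glrb (96.0 and 172 CPM), the synaptogyrin Syngr1 (411 and 699 CPM) and the G protein subunit Gnal (202 and 145 CPM). The ion channels Mcoln3 (275 and 457 CPM) and Trpm1 (149 and 64.5 CPM), both known from melanocytes, were also among them, and so was Bhlhe41 (172 and 231 CPM).

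**Figure D2:**
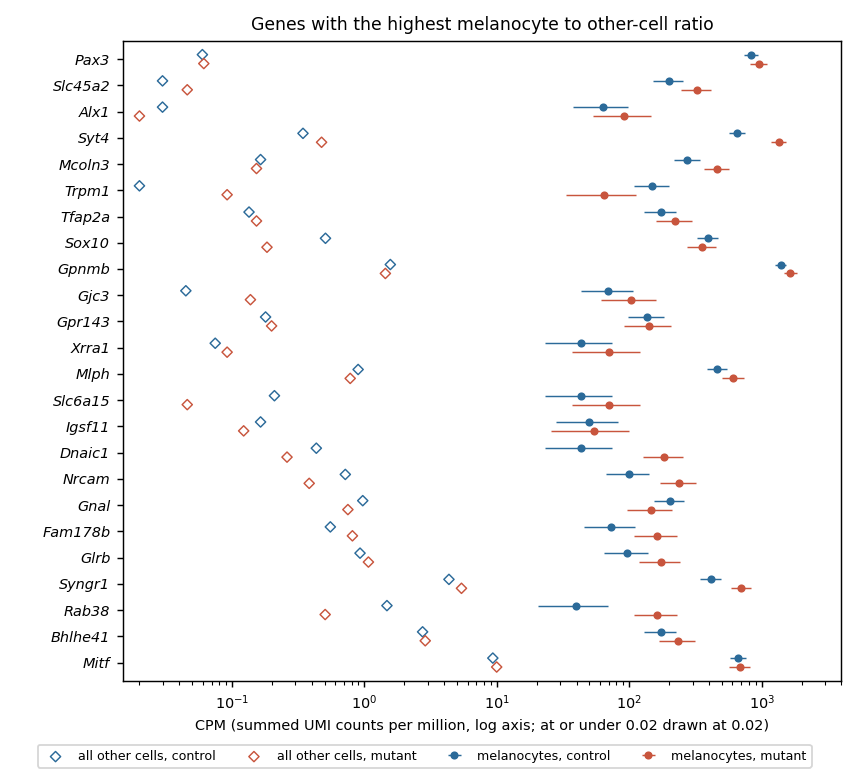
Each row is 1 of the genes with the highest ratio of melanocytes to other cells, with CPM on a log axis. Filled points are melanocytes with 95% Poisson intervals, open diamonds are all other cells, blue is control and red is mutant. Values at or under 0.02 CPM are drawn at 0.02. The lowest melanocyte value is 39.7 CPM (Rab38, control) and the highest value in other cells is 9.96 CPM (Mitf, mutant).

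Among 15 receptors 14 were measured, and 5 were at least 2-fold higher (Ednrb, Kit, Erbb3, Met and Mc1r), with a median log2 ratio of 0.44. Ednrb, the endothelin receptor of melanoblasts, was found in 41 of 52 control and 22 of 22 mutant melanocytes at 503 and 898 CPM. It was also found in 45.6% and 50.3% of endothelial-marker cells, at 250 and 214 CPM, and at 1576 and 2228 CPM in 11 and 2 Schwann-marker cells. Kit was found in 34 and 16 melanocytes at 238 and 350 CPM, below the 803 and near the 344 CPM of 23 and 16 mast-marker cells. A Kit UMI was present in 22.9% and 33.2% of endothelial-marker cells, where the level was 56.4 and 62.6 CPM. After thinning to 1000 UMIs, Kit was found in 21.9% and 27.9% of melanocytes and Ednrb in 37.9% and 61.5%. Mc1r, the receptor for melanocortin, was low, with UMIs in 6 and 8 cells (39.7 and 59.2 CPM). Erbb3, the neuregulin receptor, stood at 146 and 183 CPM in melanocytes, at 288 and 386 CPM in the Schwann-marker cells and at 0.243 and 0.296 CPM in endothelial-marker cells.

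The ligands of these receptors were low in melanocytes, several of them at or near 0 UMIs. Of 14 ligand genes in the files 9 were measured, 0 of them 2-fold higher in melanocytes. Igf2, Igf1 and Kitl, 3 in all, were at least 2-fold lower with UMIs in both libraries. Bmp4, Edn1 and Nrg1 also passed through the added 0.5 counts, but were at 0 UMIs in 1 or both libraries, and for Edn1 and Nrg1 a 2-fold difference was not detectable at this depth. The median log2 ratio of the list was -2.54, and -1.16 with each gene at 0 UMIs set to the limit of 3 counts. Kitl, the ligand of Kit, was highest in endothelial-marker cells, at 299 and 348 CPM, with 66.9 and 50.7 CPM in mesenchymal-marker cells and 26.5 and 37.7 CPM in the melanocytes. Edn1 was found at 50.3 and 23.9 CPM in endothelial-marker cells and at 0 UMIs in the melanocytes. Edn3, the ligand used by skin melanoblasts, had 22 UMIs in all other control cells and 23 in all other mutant cells. Nrg1 lay in endothelial-marker cells (41.3 and 25.3 CPM) and Hgf, the ligand of Met, was highest in mast-marker cells (44.6 and 180 CPM, on 5 and 23 UMIs). For a gene at 0 UMIs, 3 counts set the limit, at 9.93 CPM in the control and 16.1 CPM in the mutant melanocytes.

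**Figure D3:**
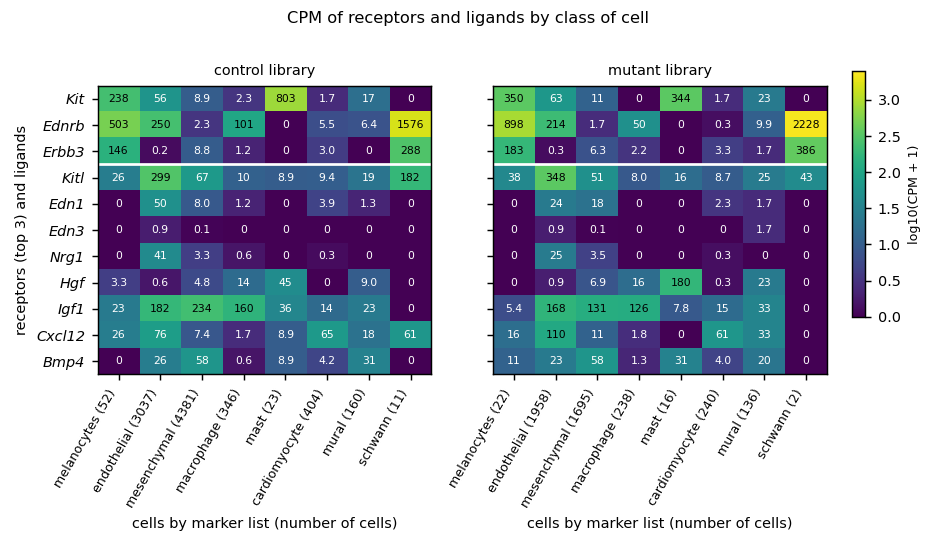
Numbers and colours give CPM for 3 receptors (top) and 8 ligands in melanocytes and in 7 classes of cells chosen by 5 markers each, with the number of cells in brackets. Colour is log10(CPM + 1). Kit, Ednrb and Erbb3 are at 146 CPM or more in the melanocytes, and Kitl, Edn1 and Nrg1 are highest in the endothelial-marker cells.

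Part of a Schwann-lineage signature was present. Of 17 genes of that lineage 10 were measured, with 6 at least 2-fold higher and a median log2 ratio of 5.04. Gap43, a growth protein of axons, was lower, at 0 and 2 UMIs against 45.9 and 60.6 CPM in other cells. Among the higher members, S100b, a calcium-binding protein of glia, was found in 9 of 52 control and 10 of 22 mutant melanocytes at 59.6 and 102 CPM, against 2.82 and 1.58 CPM in other cells. The cadherin gene Cdh19 was found in 9 and 10 cells at 36.4 and 75.3 CPM, against 0.836 and 1.01 CPM. Mbp, Egr2, Mal, Dhh and Sox2 were among the genes at 0 UMIs in the melanocytes of both libraries. Their levels in other cells are not given here, so these zeros do not set the melanocytes apart from other cells. Of the 74 melanocytes, 39 carried at least 4 UMIs of the Schwann markers.

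Ptgds, prostaglandin D2 synthase, which has been used to mark heart melanocyte-like cells, was found in 49 of 52 control and 20 of 22 mutant melanocytes, at 3668 and 1657 CPM. The next highest class was the cardiomyocyte-marker cells, at 379 and 409 CPM. It was kept in a list of 21 genes whose other members serve excitability and calcium handling. Of the list 10 were measured, Ptgds included, with a median log2 ratio of -0.56. That median was -0.21 with each gene at 0 UMIs set to the limit of 3 counts. Of the other members 1, the potassium channel gene Kcnn2, was higher, on 3 and 2 UMIs, and the calcium release channel gene Itpr1 was lower. Cacna1d and Adrb1 also passed as lower, but only through the added 0.5 counts, being at 0 UMIs in 1 or both libraries. The members at 0 UMIs in both libraries numbered 7: Adra1a, Adra1b, Adrb1, Chrm2, Cacna1c, Cacna1h and Atp2a3.

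Matrix genes of the valve were low. Of 22 matrix genes 16 were at least 2-fold lower and 0 higher than in other cells, with a median log2 ratio of -1.93. Col3a1 had 576 and 323 CPM against 2676 and 2680 CPM, and Postn 371 and 328 CPM against 2178 and 1830 CPM. Without the 12 cells with markers of another class the median of the list was -2.47. Among 17 adhesion genes 16 were measured, and Itga4, Alcam, Cdh1 and Itgb3 were higher and 5 lower (median -0.30). Itga4, the integrin subunit that binds fibronectin and Vcam1, had 288 and 290 CPM against 15.7 and 18.9 CPM, and Cdh1, which ties melanocytes to epithelium in skin, had 3 and 6 UMIs. Cdk2 was the only higher one of 9 measured genes for survival and cell cycle control, at 281 and 242 CPM against 21.0 and 23.8 CPM (list median 0.80). Cdk2, at chr10:128697939-128705031 on the minus strand, overlaps Pmel only in a stretch at the starts of both genes. Whether reads of Pmel add to its count was not tested. Mt1, a metallothionein, was the 1 higher gene of 14 antioxidant genes (288 and 484 CPM, with intervals of the log2 ratio over other cells from 1.82 to 2.45 and from 2.17 to 2.79, list median 0.21). Of 11 dissociation-response genes 0 were higher and Egr1 was lower (median -0.67).

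**Figure D4:**
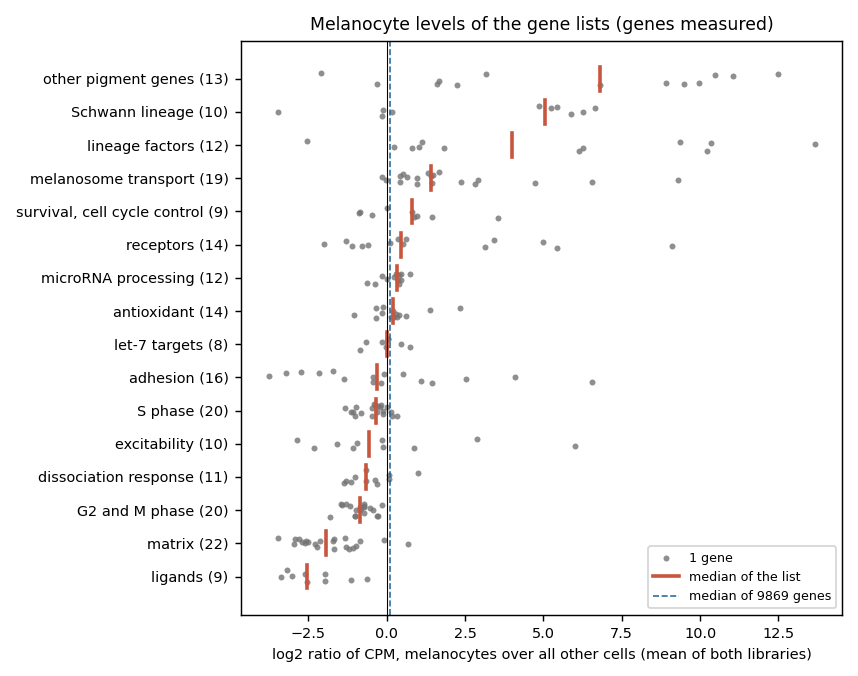
Each grey point is 1 gene of a list with at least 10 CPM in the melanocytes or the other cells, at its log2 ratio of melanocytes over other cells (mean of both libraries). Red bars are list medians and the dashed line is the median of 9869 genes, at 0.10. Pigment, Schwann-lineage and lineage factor lists lie furthest to the right and matrix and ligand lists furthest to the left, the ligand list at -1.16 once genes at 0 UMIs are set to the limit of 3 counts.

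Few melanocytes carried transcripts of division. At least 3 UMIs of 20 G2 and M phase genes were found in 8 of 52 control melanocytes (15.4%, 6.88% to 28.1%) and 5 of 22 mutant melanocytes (22.7%, 7.82% to 45.4%), against 28.2% and 40.5% of the other cells. After thinning to 1000 UMIs the shares were 6.12% and 10.2% in melanocytes and 14.8% and 19.3% in other cells. The signal was concentrated, with 53.2% of these UMIs in 2 control cells and 83.9% in 2 mutant cells. Of 20 such genes 1, Ccnb2, was 2-fold lower in both libraries (median -0.85), and 0 of 20 S phase genes passed either way (median -0.35). The G2 and M median differed between the libraries, at -1.38 in the control and -0.11 in the mutant library. In sum these genes stood at 510 and 1667 CPM in melanocytes, against 1500 and 1880 CPM in other cells.

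The targeted gene, Dicer1, was found in 20 of 52 control and 10 of 22 mutant melanocytes, at 82.8 CPM (25 UMIs) and 69.9 CPM (13 UMIs). Set as mutant over control, the log2 ratio was -0.22 (-1.33 to 0.78) in the melanocytes and -0.35 in all other cells. The counts are of 3′ ends, so a transcript that lacks deleted internal exons still counts, and these values do not check the deletion. Of 12 measured microRNA-processing genes and 8 measured let-7 targets, 0 were 2-fold higher or lower in melanocytes than in other cells in both libraries (medians 0.32 and 0.01). Between the libraries these lists had median log2 ratios of -0.09 each.

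Between the genotypes, genes with a mean of at least 200 CPM were compared. Of 731 such genes 12, or 1.64%, were at least 2-fold higher and 11, or 1.5%, at least 2-fold lower in the mutant melanocytes, with a median log2 ratio of -0.06. The rank correlation between the libraries over 3539 genes was 0.78, beside 0.49 to 0.71 between melanocytes and each other class of cells in the same library. These correlations are across genes, which are not independent. The lowest was against 16 mast-marker cells in the mutant library and the highest against 4381 mesenchymal-marker cells in the control library. Class sizes were not matched, so the range also reflects classes of unlike cell number.

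Tyrp1, used in the selection, had the highest ratio, at 3.04 on the log2 scale (2.69 to 3.42). Its UMIs numbered 77 in the control and 391 in the mutant melanocytes. After thinning to 1000 UMIs, 13.7% of control and 69.5% of mutant melanocytes had a UMI. Without the 12 cells with other markers 10 of 44 control and 17 of 18 mutant cells had one. Dct and Pmel, in the same cells, had log2 ratios of 0.73 and 0.43, and Mlana one of -0.45.

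Sex-linked transcripts differed between the pools along with genotype. Of the control melanocytes 50 carried Xist and no Y-linked transcript, 0 the reverse and 2 neither. Of the mutant melanocytes 6 carried Xist alone, 11 Y-linked transcripts alone, 2 both and 3 neither. Within the cells with Xist alone, Tyrp1 was found in 9 of 50 control and 6 of 6 mutant cells, at 202 and 1702 CPM, and among the mutant cells with Y-linked transcripts alone it was found in 10 of 11. Embryo, genotype and library cannot be told apart.

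**Figure D5:**
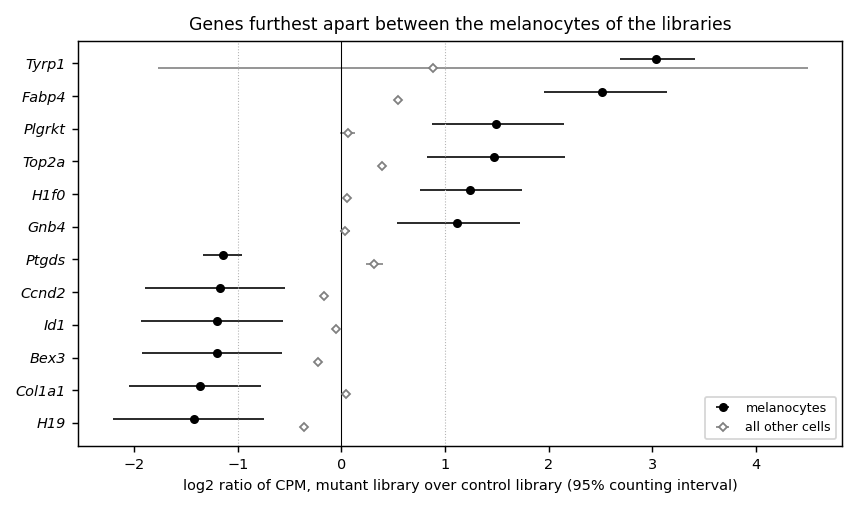
Log2 ratios of mutant over control CPM for the 6 highest and 6 lowest genes in melanocytes (black, with 95% counting intervals) and for the same genes in all other cells (grey diamonds). Dotted lines mark 2-fold. Tyrp1 is furthest to the right at 3.04 and H19 furthest to the left at -1.42.

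Apart from Tyrp1, the highest ratios were those of Fabp4, Plgrkt, Top2a, H1f0 and Gnb4. Fabp4, a fatty acid binding protein of endothelium, had 113 of its 114 mutant UMIs in 1 cell, which carried 24 endothelial marker UMIs. Without the 12 cells it had 10 control UMIs and 1 mutant UMI, a log2 ratio of -2.10. Top2a, a gene of dividing cells, had a log2 ratio of 1.47, and 0.47 without those cells. Plgrkt, a plasminogen receptor gene, was found in 28 of 52 and 17 of 22 cells at 116 and 328 CPM (1.49, 0.88 to 2.14). The linker histone gene H1f0 was found in 29 and 17 cells at 202 and 479 CPM (1.24), and the G protein subunit gene Gnb4 in 27 and 19 cells at 146 and 317 CPM (1.12). In all other cells the ratios of these last 3 genes lay at 0.06, 0.05 and 0.03.

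The lowest ratios were those of H19, Col1a1, Bex3, Id1, Ccnd2 and Ptgds. Ptgds, which had 1108 control and 308 mutant UMIs, had a log2 ratio of -1.15 (-1.33 to -0.96) in the melanocytes and 0.32 in all other cells. Id1, a target of BMP signalling, was found in 36 of 52 and 8 of 22 cells, at 301 and 129 CPM (-1.20, -1.94 to -0.56), with -0.05 in other cells. Its relative Id3, chosen after its values were seen, had 1682 and 844 CPM. Ccnd2, a cyclin of the G1 phase and a let-7 target, was found in 35 and 11 cells (-1.17), and Bex3 in 37 and 15 cells (-1.20). Without the 12 cells both were under 2-fold, at -0.94 and -0.92, and with at least 2 pigment UMIs asked for, Bex3 was at -0.61. That last setting also brought Gnb4 to 0.68. H19 and Col1a1, transcripts of the mesenchyme, had ratios of -1.42 and -1.37, which were -0.14 and -2.10 without the 12 cells.

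Melanocytes with and without Tyrp1 were set side by side for other genes. Tyrp1, Dct and Pmel all took part in choosing the cells. The split and the genes named for it were chosen after their values were seen, and the values are a description. The 10 control cells with Tyrp1 had a lower median depth (4294.5 UMIs) than the 42 without (5698 UMIs). Pmel stood at 9208 CPM with and 2899 CPM without Tyrp1, Dct at 14773 and 6354 CPM, and Ednrb at 1095 and 400 CPM. Slc24a5 had 1229 and 319 CPM, and the lipase gene Mgll 738 and 89.4 CPM. Pax3 (1028 and 793 CPM) and Kit (201 and 245 CPM) lay closer together. In the mutant library the 18 cells with and 4 cells without Tyrp1 had 14918 and 6006 CPM of Dct, 1082 and 360 CPM of Ednrb, 656 and 127 CPM of Slc24a5 and 390 and 233 CPM of Kit. Once cells with other markers were left out, 1 mutant cell without Tyrp1 remained, and Ednrb was level at 1073 and 1074 CPM. Dct then stood at 14467 CPM with and 11544 CPM without Tyrp1, and Slc24a5 at 650 and 134 CPM. Kit had the reverse order, at 370 and 537 CPM.

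A few genes had the opposite order. Matn4, a matrilin of cartilage matrix, had 67.0 CPM in the control cells with Tyrp1 and 505 CPM in those without, Col9a3 had 0 UMIs against 72, and Gja1, the main connexin of the heart, 0 UMIs against 42. Without the cells with markers of another class these values for the cells lacking Tyrp1 were 603 CPM, 61 UMIs and 39 UMIs. In the mutant library Matn4 had 130 CPM in 18 cells with and 444 CPM in 4 cells without Tyrp1, and Col9a3 had 1 UMI against 21. Gja1 had 3 UMIs against 4 there, a log2 ratio of -1.91 with an interval from -4.74 to 0.60. Without cells with other markers only 1 mutant cell lacked Tyrp1, with 7 UMIs of Matn4 and 5 of Col9a3. Both genes were also lower in all other mutant cells than in all other control cells, at 27.7 against 83.6 CPM for Matn4 and 24.0 against 61.1 CPM for Col9a3. Dcn, at 44.7 and 307 CPM in the control cells with and without Tyrp1, was at 97.8 CPM in the latter once the 8 cells with other markers were left out.

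Beyond the counting noise, genes varied unevenly among the melanocytes. A measure of excess variance (the squared coefficient of variation that remains after Poisson noise and depth) had a median of 0.083 over 1156 genes with at least 40 UMIs in the control melanocytes. Tyrp1 ranked 8 in the control library, at 6.03, after Igfbp5, Col1a2, Dcn, H19, Mest, Ptn and Postn. In the mutant library it had 0.76 and was not among the 25 highest of 586 genes, whose median was 0.14. For Igfbp5, a single cell held 43 of 59 UMIs. These rankings include the cells with markers of another class, 8 of them in the control library. Among control cells without Tyrp1, leaving them out took Igfbp5 from 59 to 7 UMIs and H19 from 92 to 12. Dcn went from 79 to 18 UMIs and Postn from 102 to 18, while Tyrp1 kept its 77 UMIs in the control library. Of the lineage factors, Pax3 had 0.23 and 0.069 in the control and mutant library, Mitf 0.35 and 0.54, and Sox10 0.38 and 0.41. The pigment genes found in all cells had 0.36 and 0.22 for Dct and 0.51 and 0.38 for Pmel, and the housekeeping gene Eef1a1, named for comparison, 0.025 and 0.057.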

How the data were processed

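The deposited matrices hold UMI counts per gene and barcode for 1 control and 1 mutant library, which the authors made with Cell Ranger 5.0.0 and mm10, per the submitters' processing notes. The annotation and the use of strand are not given in the sources used here. The libraries held 12793 and 8250 barcodes and 70221728 and 69475632 UMIs.

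Barcodes with at least 500 genes, 1000 UMIs and under 20% mitochondrial UMIs were kept. Counts were summed over melanocytes and over all other kept cells and scaled to CPM, and 0.5 counts were added for ratios. Comparison classes needed at least 4 UMIs of their own 5 markers and fewer of every other list and of the pigment genes. They are ranges of a score, not clusters. Intervals were exact Poisson, exact conditional Poisson or Clopper-Pearson at 95%. PCR and sampling of cells are not covered. No doublet caller was run. With 1 library per genotype no p-value was computed.

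The members and gene lists were chosen with earlier results of these data known. Genes were named if they selected the cells, were among up to 8 of a list's called members with the highest CPM, were Mitf, Sox10, Pax3, Kit, Ednrb, Mc1r or Dicer1, were among the 25 highest ratios to other cells, or were among the 6 highest or lowest between libraries. Erythroid, mitochondrial, ribosomal, sex-linked and unnamed predicted genes were left out of the last 2 groups. Other genes were named after their values were seen. Some genes that this rule covers are not reported here. Python 3.11.15, numpy 2.4.6, scipy 1.17.1, pandas 2.3.3 and matplotlib 3.10.9 were used. The 4-fold calls and the ratio intervals were tested on simulated Poisson counts, which the intervals also assume. Variation between cells and mixed barcodes were not simulated, so that test does not cover them. Of 32285 gene identifiers, 32158 were found in GENCODE M21, which gave coordinates. The alternatives were other pigment thresholds, a stricter cell filter, cells with other markers left out, equal cell weights, centring, other reference cells, other folds and other CPM floors.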

Additional observations from a re-analysis of the deposited data

Results flagged for a closer look

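Gja1 lay on opposite sides of the other cells in the 2 libraries. Its log2 ratio of melanocytes over other cells was 1.01 in the control and -1.25 in the mutant library, on 42 and 7 UMIs, and the difference was not tested. Pigment transcripts were also found in 2 barcodes outside the cell filter, which carried 18 pigment UMIs of 831 in the control and 25 of 1140 in the mutant library.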

How the results depend on the processing

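No paired analysis was possible because each genotype has 1 library and the replicate numbers follow accession order. With at least 2 pigment UMIs, 21 genes were higher and 6 lower of 728 in mutant melanocytes, the median of the further pigment genes was 4.68, and Col1a1 turned to 0.084. The stricter cell filter gave 7.38 for that median and equal cell weights gave 5.18. Leaving out every cell with markers of any list, Schwann included, kept 29 cells, with shares of 0.214%, 0.0937% and 0.169% (control, mutant, both), 41 of 442 genes 4-fold higher, 74 higher and 69 lower of 778 in the mutant, and medians of 5.50 (further pigment genes), -1.10 (ligands), 0.093 (survival), -0.80 (adhesion), -2.84 (matrix) and -1.83 (G2 and M). Fabp4 was then at -2.12, Top2a at -2.30 and Tyrp1 at 2.07, and H1f0 (0.88), Plgrkt (0.93) and Ptgds (-0.96) were under 2-fold, as was Ptgds with equal cell weights (-0.88). Leaving out the 12 cells with other than Schwann markers, chosen after seeing the data, gave -2.47 for matrix, -0.86 for S phase and -2.10 for Fabp4. A floor of 20 CPM gave 572 genes higher and 466 lower of 6651 in the mutant, against 12 and 11 of 731. A floor of 400 CPM gave 22 of 314 genes 4-fold higher, 4 higher and 1 lower of 319 in the mutant, and -2.60 for matrix. An 8-fold threshold gave 87 of 3203 genes. With 74 cells, a gene at 0 UMIs in both libraries could still reach 6.15 CPM.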
